A study of Solanum tuberosum with 8 samples.

Results

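RNA of potato meristems was sequenced in nondormant and in dormant buds, and 113 abundant transcripts that stood moderately lower in the nondormant state are described here. The members were chosen by the measured group values: they are the genes of the authors' comparison with the status OK, a dormant value of at least 100 FPKM and a nondormant value lower by a factor of at least 2.5 and below 5. FPKM are fragment counts scaled to transcript length and to the mapped total, so levels can be set side by side between genes. Genes that start on chromosome 1 at 1 to 2 Mb, on chromosome 3 at 16 to 21 Mb or on chromosome 4 at 6 to 7 Mb were left out, which removed 12 genes of like level and ratio. The 113 were drawn from 19664 tested genes among 35091 in the table, and they lay on all 12 chromosomes. Among the genes the authors did not test, 0 reached 100 FPKM in dormant meristems, the highest standing at 63.9 FPKM.

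All 8 samples came from Russet Burbank tubers grown in the field, with no transgene or mutation named in the labels. The 4 nondormant samples were meristems from tubers kept at 4 °C until buds began to peep, and the 4 dormant samples were meristems cut about 2 weeks after harvest. The nondormant samples are dated to spring of 2006, 2008, 2010 and 2011 and the dormant ones to fall of 2005, 2007, 2009 and 2010, and whether any shared a harvest is not stated. Season, sampling year, storage time, cold and dormancy therefore cannot be told apart. The labels name no number of tubers or buds behind a sample. The table holds 1 value per gene and group and no value of a single sample, so no replicate error accompanies any level below, and read depth is unknown. The labelled tissue could not be checked against markers, because the table gives no gene names. In RNA of excised meristems, fewer cells of a kind and less RNA per cell cannot be told apart.

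A potato tuber is a swollen underground stem, and its eyes hold buds whose meristems rest after harvest before they sprout. Abscisic acid is known to hold buds dormant, while gibberellins and cytokinins are known to act in the return to growth. Tuber tissue is also known for very abundant transcripts of storage proteins and protease inhibitors. Which of the loci below encode such proteins is not known here: the table pairs its identifiers with no names, and 0 of them were found in the gene table given for assembly SolTub_3.0. Loci are given by the positions the authors' table prints. The sources used here name no genome build.

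The members had a median of 79.1 nondormant FPKM and 223 dormant FPKM. Because level and ratio chose them, these values and the ratios below are descriptions, and no test is attached. The level limit and the upper ratio limit together let no member be near absence in either state. Nondormant values ran from 22.3 to 1465 FPKM and dormant values from 100.2 to 4857 FPKM. In nondormant meristems 45 of the 113 still stood at 100 FPKM or more, 68 were below that level and 32 were below 50 FPKM. In rank order of all genes, the median member was number 1888 in nondormant and number 629 in dormant meristems. Among the 100 genes with the highest values, 6 members were found in nondormant and 17 in dormant meristems. Together the 113 genes made up 2.52% of all nondormant FPKM and 7.52% of all dormant FPKM.

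**Figure D1:**
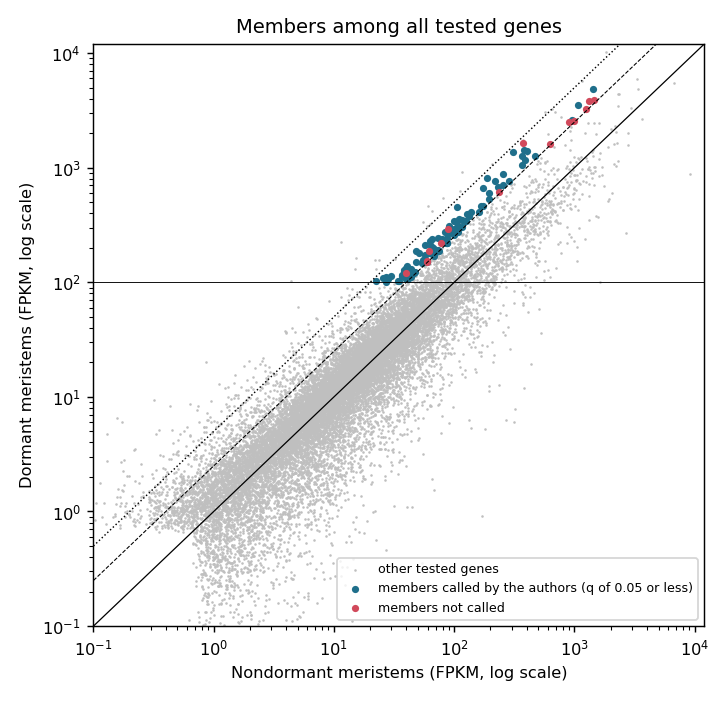
Authors' FPKM values of tested genes above 0 in both groups (nondormant on the x axis, dormant on the y axis, both log scales; axes start at 0.1 FPKM, so lower values are not shown), with the 113 members in colour. The solid diagonal marks equal values and the horizontal line 100 FPKM in dormant meristems. Dashed and dotted lines mark nondormant values lower by factors of 2.5 and 5. Members lie between these 2 lines, most of them near the dashed one, and several of the uncalled ones sit at the end of high FPKM.

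Such ratios were uncommon among abundant transcripts. Of the 1491 tested genes with at least 100 FPKM in dormant meristems, 777 (52.1%) had nondormant values within a factor of 1.5 of the dormant value. A further 310 (20.8%) were lower in nondormant meristems by 1.5-fold to 2.5-fold, 125 (8.38%) by 2.5-fold to 5-fold with the left-out stretches counted in, and 19 (1.27%) by at least 5-fold. In the other direction, 214 had nondormant values 1.5 to 2.5 times the dormant one and 46 exceeded it at least 2.5-fold. Choosing genes by their dormant value favours genes that are lower in nondormant meristems. The median log2 ratio, nondormant over dormant, was -1.55 for the members, -0.20 for all 1491 and -0.05 for all tested genes.

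Most members lay near the lower limit of the ratio window. In 68 of them the nondormant value was 2.5-fold to 3-fold lower, in 28 it was 3-fold to 3.5-fold lower, in 10 it was 3.5-fold to 4-fold lower, and in 7 it was at least 4-fold lower. The median was 2.94-fold, with quartiles of 2.70-fold and 3.32-fold. Because the rule admits only this band of ratios at every level, no relation between level and ratio is read from the members.

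**Figure D2:**
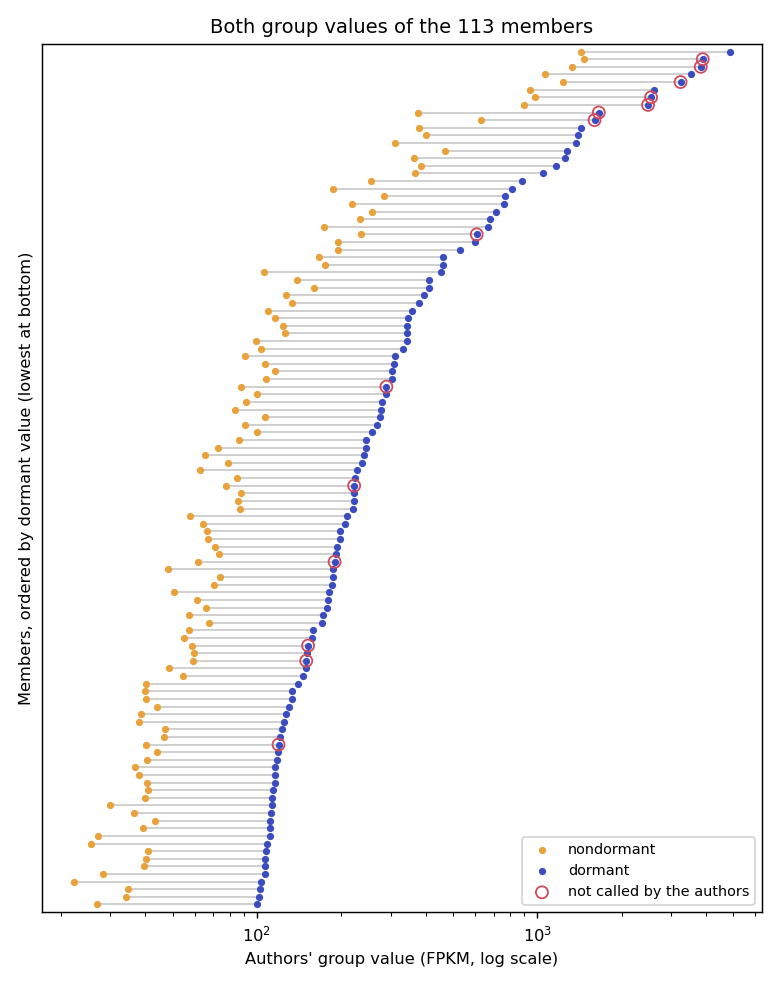
Nondormant (orange) and dormant (blue) FPKM of each of the 113 members on a log scale, ordered by dormant value, with a red ring on the 14 members that the authors did not call. The rule bounds every line to a ratio of 2.5 to 5; of the 10 highest members 7 carry a ring.

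The 10 most abundant members carried much of the group, with 47.2% of its summed dormant FPKM. They summed to 10361 FPKM in nondormant against 30270 FPKM in dormant buds. The highest was PGSC0003DMG400014104, on chromosome 8 from 1473269 to 1474875, with 1431 FPKM in the nondormant state and 4857 FPKM in the dormant state. It ranked 44th among all genes in the nondormant and 6th in the dormant state, and its nondormant value was 3.39-fold lower (log2 ratio -1.76; q = 0.0484 in the authors' deposited table). The locus on chromosome 7 from 50577441 to 50580373 followed, with 1465 nondormant FPKM and 3894 dormant FPKM, and it had the highest nondormant value of the group. PGSC0003DMG400001272, at 15850248 to 15856547 of chromosome 1, had 1066 nondormant FPKM and 3549 dormant FPKM (3.33-fold lower; q = 0.0306 in the authors' deposited table). These 3 loci were among the 100 highest values of both states. Under quantile normalization, 5 of the 10 fell below the 2.5-fold limit, the locus at 50577441 of chromosome 7 among them (log2 ratio -1.09).

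Of the other 7, 5 are given here. The locus at 1435830 to 1439140 of chromosome 8 had 1241 FPKM in the nondormant state and 3245 FPKM in the dormant state, 2.62-fold lower. The chromosome 12 locus at 51634555 to 51638989 had 945 nondormant FPKM and 2605 dormant FPKM, and it was called (q = 0.0223 in the authors' deposited table). Values of 981 FPKM in nondormant against 2548 FPKM in dormant buds were listed on chromosome 5 from 45850998 to 45855406. All of these stood within a factor of 2.8 of their dormant value. The chromosome 6 locus at 46764117 to 46769771 had 897 FPKM in the nondormant state and 2484 FPKM in the dormant state, and it missed the authors' threshold narrowly (q = 0.0504 in the authors' deposited table). At 31527792 to 31535258 of chromosome 8 the values were 630 nondormant FPKM and 1600 dormant FPKM. The remaining 2 share an interval on chromosome 9 and are given with the shared loci further on.

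The authors called 99 of the 113 members at a q of 0.05 or less, all lower in nondormant meristems, where 3.75% of all tested genes were called in that direction. Among the 1491 tested genes abundant in dormant meristems, 11.5% were called lower in nondormant ones. A high share follows from the rule, which used the same contrast, and nothing is read from it. At a q of 0.01 or less the authors' table called 62 members, against 1.56% of all tested genes lower in nondormant meristems, and at a q of 0.1 or less it called 107 members, against 5.63%. The smallest p-value the authors' deposited table holds, 5e-05, was reached by 18 members.

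Calls were also counted by level, without a test of the difference. Of 17 members with at least 1000 FPKM in dormant meristems, 10 were called (58.8%), and of the 96 members below that level, 89 were called (92.7%). Over all tested genes of these levels, 24.1% of the 83 with at least 1000 FPKM and 10.8% of the 1408 with 100 to 1000 FPKM in dormant meristems were called lower in nondormant ones. The rule used the same contrast, and 2 of the 7 uncalled members of at least 1000 FPKM are the models on the shared chromosome 9 interval. The median fold was 2.88-fold in the 1000 FPKM class and 2.95-fold in the class of 100 to 200 FPKM. The rule bounds the ratio at every level, so nothing is read from these medians. The median p-value in the authors' deposited table was 0.0029 for the 17 and 0.00035 for the 96. The table prints no error, only a test statistic. The log2 ratio divided by that statistic had a median of 0.77 in the 17, 0.70 in the class of 100 to 200 FPKM and 0.72 in all members. This quotient is the error of the log2 ratio if the statistic is that ratio over its error, which the table does not state.

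**Figure D3:**
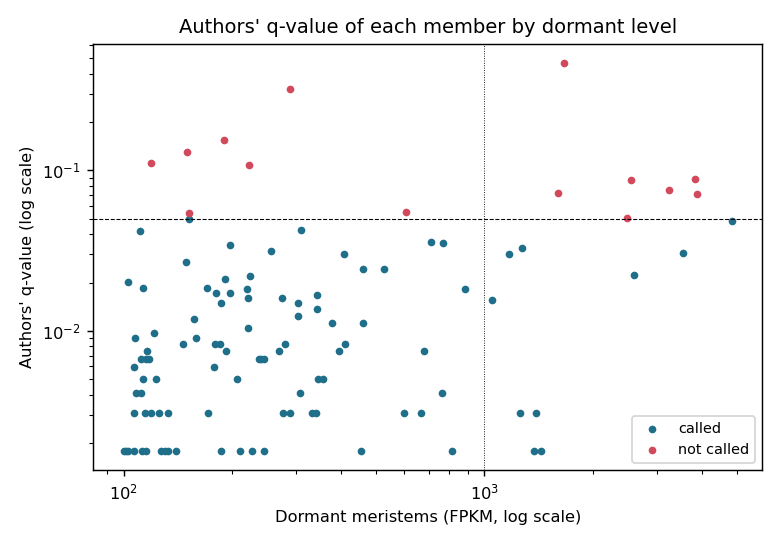
The authors' q-value (log scale) against the dormant FPKM (log scale) of each of the 113 members, called ones in blue and uncalled ones in red. The dashed line marks a q of 0.05 and the dotted line 1000 FPKM; 7 of the 17 members to the right of the dotted line lie above the dashed one, against 7 of the 96 to its left.

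The 14 uncalled members had q-values from 0.0504 to 0.464 in the authors' deposited table. In the authors' deposited table, q-values of 0.0504 to 0.0554 belonged to 3 of them: the locus on chromosome 6 already given, the locus on chromosome 2 from 45753257 to 45756709, and that on chromosome 7 from 46740271 to 46745332. The chromosome 2 locus had 58.9 FPKM in nondormant against 152 FPKM in dormant buds. That on chromosome 7 had 236 FPKM in the nondormant state and 608 FPKM in the dormant state. The highest values in the authors' deposited table were q = 0.464 and q = 0.322, and both of these members share their interval with another gene model. The 5 uncalled members with the highest dormant values were those on chromosome 7 from 50577441, chromosome 9 from 6129992 (the model with 3830 FPKM in dormant meristems), chromosome 8 from 1435830, chromosome 5 from 45850998 and chromosome 6 from 46764117. Their q-values in the authors' deposited table ran from 0.0504 to 0.0888.

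Size of ratio and size of statistic did not go together for every member. The authors' test statistic was 3 or more for 8 members. The highest, 5.09, belonged to the locus on chromosome 8 from 31527792 to 31535258, which was not called (p = 0.0094, q = 0.0727 in the authors' deposited table). The chromosome 3 locus at 8152703 to 8154237 had a smaller statistic of 3.59 and the smallest p-value of 5e-05 in the authors' deposited table. How the authors obtained a p-value from the statistic is not stated in the sources used here.

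The largest ratios belonged to genes of very different level. The locus at 34106909 to 34110598 of chromosome 2 had the lowest nondormant value of all members, 22.3 FPKM, against 103 FPKM in dormant meristems, which is 4.61-fold lower. The chromosome 3 locus from 8152703 to 8154237 had 311 nondormant FPKM and 1371 dormant FPKM, 4.42-fold lower, so that its rank among all genes was 471 in nondormant and 50 in dormant meristems. The chromosome 4 locus at 62030733 to 62031964 had 187 FPKM in nondormant against 814 FPKM in dormant buds (4.36-fold lower). All 3 reached the smallest q-value of 0.00179 in the authors' deposited table. The locus at 52708516 to 52711850 of chromosome 6, with 106 FPKM in the nondormant state and 455 FPKM in the dormant state, was 4.29-fold lower. The last of the 5 largest is 1 of the models that share an interval on chromosome 9.

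At the other end, 5 members lay within 2.53-fold. The locus at 40588775 to 40596686 of chromosome 6 had 74.1 nondormant FPKM and 186 dormant FPKM (2.51-fold lower). On chromosome 2 from 46417544 to 46425808 the values were 87.2 FPKM in nondormant against 220 FPKM in dormant buds. On chromosome 1 from 77152833 to 77160517 they were 67.4 FPKM in the nondormant state and 170 FPKM in the dormant state. These 3 members, nearest the lower ratio limit, were all called. On chromosome 11 from 40464454 to 40467958, values of 59.4 nondormant FPKM and 150 dormant FPKM were not called (q = 0.130 in the authors' deposited table). The chromosome 7 locus from 29592379 to 29594228, with 59.9 FPKM in nondormant against 151 FPKM in dormant buds, was called at q = 0.0499 in the authors' deposited table.

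The limits of the rule cut through continuous values. Just outside the lower ratio limit stood a locus at 40289047 to 40293713 of chromosome 9, with 105 FPKM in the nondormant state and 263 FPKM in the dormant state (2.498-fold lower). The next were 2.49-fold lower on chromosome 5 from 3645245 to 3647347 and 2.48-fold lower on chromosome 8 from 28386636 to 28394663. Just outside the upper limit were loci on chromosome 4 from 48701440 to 48702249 (31.9 nondormant FPKM and 161 dormant FPKM, 5.04-fold lower), on chromosome 2 from 34118113 to 34122254 (5.13-fold lower) and on chromosome 9 from 13066923 to 13069946 (5.23-fold lower). The upper limit fell in a sparse range, since the highest ratios inside it were 4.61-fold, 4.43-fold and 4.42-fold. Just under the level limit were loci at 99.1 FPKM (chromosome 2 from 33620615 to 33623841), 99.1 FPKM (chromosome 10 from 24401133 to 24406576) and 96.4 FPKM (chromosome 4 from 46248108 to 46249349) in dormant meristems. Just above it were loci at 100.2 FPKM (chromosome 6 from 1753910 to 1759140), 102 FPKM (chromosome 5 from 45356449 to 45360893) and 103 FPKM (chromosome 12 from 59021510 to 59024508).

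The members were spread over the genome in rough proportion to abundant transcripts. Outside the left-out stretches they were 7.83% of the 1444 tested genes with at least 100 FPKM in dormant meristems. By chromosome this share ran from 4.60% on chromosome 11 (4 members of 87 such genes) to 10.2% on chromosome 2 (13 members of 128). Chromosome 1 held the most members, 16 of 204 such genes (7.84%). Chromosome 2 held 13 members but no very abundant one, its highest dormant value being 713 FPKM, while chromosomes 1, 5, 6, 7, 8, 9 and 12 each held at least 1 of the 10 most abundant. No test was made of these shares.

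**Figure D4:**
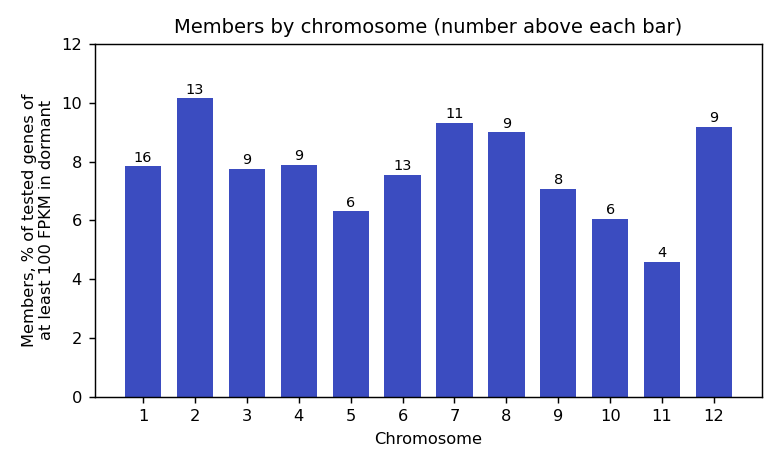
Members as a percentage of the tested genes with at least 100 FPKM in dormant meristems on each chromosome, outside the left-out stretches, with the number of members above each bar. Shares run from 4.60% on chromosome 11 to 10.2% on chromosome 2.

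Within chromosomes, 14 of the 113 members lay within 100 kb of another, in 7 pairs. In 5 of these no other tested gene lay between the partners. Among these 5 is the pair on chromosome 9 from 6129992, whose partners are models printed on the same interval. No like count over other abundant genes is given, so no clustering is read from these pairs. The closest with separate intervals was on chromosome 3, where loci from 42158477 to 42160727 and from 42161887 to 42164249 are 1.16 kb apart. The first had 125 FPKM in nondormant against 344 FPKM in dormant buds, and the second 70.1 FPKM in the nondormant state and 185 FPKM in the dormant state. Their ratios were alike, 2.74-fold and 2.64-fold lower in nondormant meristems, and both were called.

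Level differences within the other adjoining pairs varied. On chromosome 7, the abundant locus from 50577441 lies 5.31 kb from a member at 50569914 to 50572135 with 39.2 nondormant FPKM and 112 dormant FPKM. Dormant levels of these neighbours differ 34.9-fold, while their ratios are close, 2.66-fold and 2.85-fold lower in nondormant meristems. Only the less abundant partner was called. On chromosome 4, a member from 52464353 to 52465799 with 66.7 FPKM in nondormant against 197 FPKM in dormant buds lies 5.80 kb from one at 52471602 to 52473730 with 363 FPKM in the nondormant state and 1257 FPKM in the dormant state. The first is 2.96-fold and its partner 3.46-fold lower. On chromosome 8, both partners of a pair 34.1 kb apart belong to the 5 most abundant members, from 1435830 and from 1473269, at 3245 FPKM and 4857 FPKM in dormant meristems, and 1 untested gene lies between them.

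The remaining pairs enclose 8 tested genes, of which 7 had higher values in nondormant meristems. On chromosome 10, members from 45548017 to 45549345 (57.1 nondormant FPKM and 159 dormant FPKM) and from 45604034 to 45608005 (194 FPKM in nondormant against 601 FPKM in dormant buds) enclose 2 tested genes of low level. The first had 1.14 nondormant FPKM and 2.59 dormant FPKM and was not called. The second, from 45592263 to 45598576, had 1.58 FPKM in the nondormant state and 0.109 FPKM in the dormant state and was called higher in nondormant meristems (q = 0.0339 in the authors' deposited table). On chromosome 11, members from 40464454 and from 40520877 are 52.9 kb apart and enclose 6 tested genes. None of these 6 was called, and all had nondormant values above their dormant values, such as 66.3 nondormant FPKM and 64.7 dormant FPKM from 40498314 to 40500721.

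Members on 2 intervals cannot be separated cleanly from a second gene model. On chromosome 9 from 6129992 to 6134762, both models printed on the same interval are members. One had 1331 FPKM in nondormant against 3830 FPKM in dormant buds (2.88-fold lower; q = 0.0888 in the authors' deposited table). The other had 374 FPKM in the nondormant state and 1658 FPKM in the dormant state, 4.43-fold lower, with q = 0.464 in the authors' deposited table. How reads were divided between them is not stated in the sources used here, and summed they come to 1705 nondormant FPKM and 5488 dormant FPKM (3.22-fold lower). On chromosome 3 from 45880646 to 45887074, a member with 88.0 FPKM in nondormant against 290 FPKM in dormant buds shares its interval with a model of 17.9 FPKM in the nondormant state and 28.4 FPKM in the dormant state. None of these 4 models was called, and the values of each are uncertain to the extent that reads were shared.

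The genes next to the members, which the rule did not choose, stood on both sides of equality. On either side of the members lay 216 tested genes that are no members, at a median of 12.02 nondormant FPKM and 12.4 dormant FPKM. Of these, 119 (55.1%, exact Clopper-Pearson 95% interval 48.2% to 61.8%, which covers counting error over genes only) were lower in nondormant meristems, against 52.8% of all tested genes. A nondormant value at least 2-fold lower was found in 35 (16.2%), against 9.44% of all tested genes, and one at least 2-fold higher in 32 (14.8%), against 14.2%. The authors called 17 adjacent genes lower and 17 higher in nondormant meristems, 7.87% each, where 3.75% and 7.17% of all tested genes were so called. No test was made of these shares, which involve genes close together on a chromosome.

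Near and far neighbours are given side by side, without a test. Of the 86 adjacent genes within 5 kb, 11 (12.8%) were at least 2-fold lower and 17 (19.8%) at least 2-fold higher in nondormant meristems. Of the 130 farther away, 24 (18.5%) were at least 2-fold lower and 15 (11.5%) at least 2-fold higher.

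**Figure D5:**
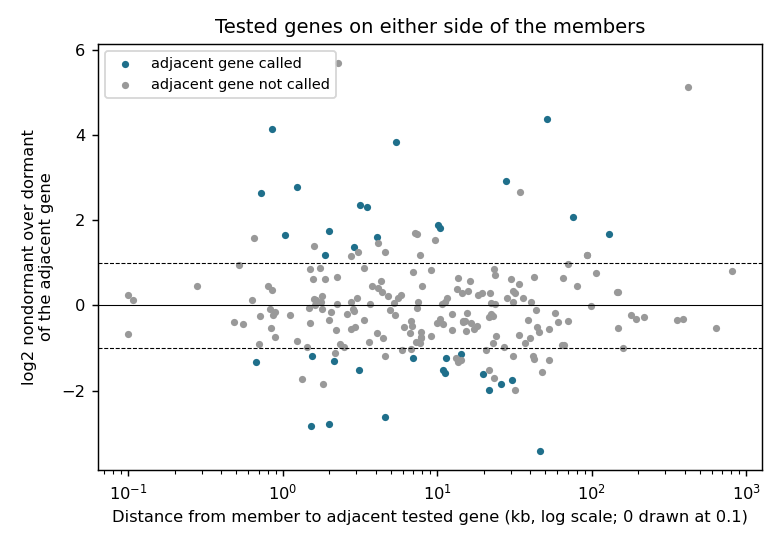
The log2 ratio, nondormant over dormant, of the tested genes next to members, against their distance from the member in kb (log scale), for adjacent genes above 0 in both groups. Points in blue were called by the authors; dashed lines mark 2-fold differences, and points lie on both sides of 0 at every distance.

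Some adjacent genes of at least 100 FPKM in dormant meristems were also lower in nondormant ones, at ratios outside the limits of the rule. The chromosome 9 locus at 2.498-fold, just outside the lower ratio limit, lies 0.671 kb from a member at 40294384 to 40296068 with 61.2 FPKM in nondormant against 180 FPKM in dormant buds. On chromosome 10, a gene from 43041128 to 43044181 had 207 FPKM in the nondormant state and 486 FPKM in the dormant state (2.35-fold lower) and lies 11.4 kb from a member at 43055575 to 43058731 with 218 nondormant FPKM and 762 dormant FPKM. On chromosome 12, a gene from 3139669 to 3140616 had 22.0 FPKM in nondormant against 158 FPKM in dormant buds, 7.18-fold lower, and lies 1.53 kb from a member at 3142146 to 3142608 with 194 FPKM in the nondormant state and 528 FPKM in the dormant state.

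Other adjacent genes stood the opposite way. On chromosome 1, the gene from 70120996 to 70121776 had 1225 nondormant FPKM and 236 dormant FPKM, 5.18-fold higher in nondormant meristems, and lies 3.15 kb from a member at 70113456 to 70117848 with 40.8 FPKM in nondormant against 115 FPKM in dormant buds. On chromosome 4, 51.3 kb from the member at 62030733, a gene from 62083294 to 62086138 had 132 FPKM in the nondormant state and 6.26 FPKM in the dormant state (21.1-fold higher). The gene on the other side of that member, from 62026396 to 62028743, was 6.92-fold lower, with 1.51 nondormant FPKM and 10.4 dormant FPKM. These adjacent genes were named for the size of their values after those had been seen.

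Runs that held several members were also singled out after their positions were known. On chromosome 2 from 31653871 to 34110598, 6 members lay among 180 tested genes (3.33%, where members are 0.575% of all tested genes). Only genes of at least 100 FPKM in dormant meristems could be members, and 16 of the 180 reached that level. Of all such genes outside the left-out stretches, 7.83% were members. Nondormant values of the 6 members ran from 22.3 to 110 FPKM and their dormant values from 103 to 356 FPKM. The stretch also holds the gene at 33620615 that fell just under the level limit. All 6 members were called, and of the 174 other tested genes 12 were called lower and 8 higher in nondormant meristems. On chromosome 10 from 43055575 to 45608005, 5 members lay among 220 tested genes, of which 25 reached 100 FPKM in dormant meristems. All 5 members there were called. Of the 215 tested genes there that were no members, 5 were called lower and 22 higher. On chromosome 7 from 47966309 to 50580373, 5 members lay among 185 tested genes, of which 16 reached 100 FPKM in dormant meristems. Of the 5 members there, 3 were called. Of the 180 tested genes there that were no members, 5 were called lower and 13 higher. Over all tested genes, 3.75% were called lower and 7.17% higher in nondormant meristems. On chromosome 4 from 51133275 to 53270995, 4 members lay among 63 tested genes, of which 6 reached 100 FPKM in dormant meristems. That is 6.35% of the tested genes, a higher share than in the runs above. These 4 members had nondormant values of 57.7 to 363 FPKM and dormant values of 197 to 1257 FPKM, and all were called. Of the 59 other tested genes there, 2 were called lower and 4 higher. No test was made of the counts in any of these runs.

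Locus spans, taken as the printed interval with introns included, were like those of other abundant genes. The median was 3043 bp for members (quartiles 1683 and 4434 bp), 3025 bp for the 1491 tested genes abundant in dormant meristems and 3526 bp for all tested genes. Intervals under 1000 bp were found for 13 members. The authors called 12 of these lower in nondormant meristems, against 99 of all 113 members and 11.5% of the 1491 abundant genes. The rule used the same contrast, so nothing is read from this count. The shortest interval lay at 17844444 to 17844807 of chromosome 5, with 100.3 nondormant FPKM and 256 dormant FPKM. The longest, on chromosome 2 from 32727167 to 32737170, had 54.4 FPKM in the nondormant state and 146 FPKM in the dormant state.

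The mirror rule, with at least 100 FPKM in nondormant meristems and a nondormant value 2.5-fold to 5-fold higher, gave 105 genes outside the same stretches. The 113 members summed to 2.52% of nondormant and 7.52% of dormant FPKM, and the 105 mirror genes to 4.97% of nondormant and 1.45% of dormant FPKM. In the authors' deposited table, 18 of the 113 members and 44 of the 105 mirror genes reached the smallest p-value. The authors called 99 of the members, where 3.75% of all tested genes were called lower in nondormant meristems, and 102 of the mirror genes, where 7.17% were called higher. Both rules used this contrast, so nothing is read from these summed shares or from these counts of calls or of smallest p-values. Intervals under 1000 bp were printed for 13 of the members and 26 of the mirror genes, and the median span was 3043 bp for members and 2458 bp for mirror genes. Of the tested genes adjacent to members, 17 of 216 were called lower in nondormant meristems, and of those adjacent to mirror genes, 0 of 202. Called higher were 17 of the 216 and 27 of the 202. These counts are set side by side without a test.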

How the data were processed

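The data were 1 table of the authors' gene-by-gene comparison between both groups. The deposited group values were read as FPKM from the column layout and status words, which are those of a Cuffdiff table; the header prints no unit. The authors' test statistic was treated as a score without set bounds. The deposited p-value and q-value were copied as the authors gave them. Aligner, program version, genome build, annotation and the way 4 samples entered a group value are not stated in the sources used here. Ratios were recomputed from the FPKM values with no pseudocount. No test over samples was possible, so counts and medians stand beside those over all tested genes; alternatives covered thresholds, scaling and distances. Depth is unknown, so no precision from depth is stated. The members, lists and the rule for naming loci were chosen with earlier results of these data known. Planned gene lists and marker lists gave no result, since no identifier could be named. Loci were named if they were the 10 highest in dormant meristems, the 5 largest or 5 smallest ratios, within 100 kb of another member, on a shared interval, the 5 highest uncalled, or the 3 nearest each limit; 2 identifiers were printed. The selection was tested on simulated data in which every gene not meant to be chosen had a ratio under the lower limit. The level limit, the upper ratio limit, the left-out stretches and the status were therefore not tested. The work used pandas 2.3.3 and numpy 2.4.6 under Python 3.11.15, with matplotlib 3.10.9 for plots and scipy 1.17.1 for exact intervals.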

Additional observations from a re-analysis of the deposited data

How the results depend on the processing

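The number of members, 113, moved with the limits of the rule: it was 175 with a dormant value of at least 50 FPKM, 63 with at least 200 FPKM, and 218 with ratios from 2-fold. It stayed within 1.5 times of 113 with ratios up to 8-fold, with the left-out stretches kept, and under 3 other scalings: setting the median ratio of tested genes to 1 gave 101 genes (99 of them members), quantile normalization 116 (106 members) and a pseudocount of 1 gave 112 (111 members). Of the 99 called members, 62 passed a q of 0.01 or less and 107 members a q of 0.1 or less. A Bonferroni adjustment left 0, since the smallest p-value in the authors' deposited table then becomes 0.983. No gene of the table could pass it, so nothing about the members is read from this outcome. Of the 113, 111 had an unadjusted p under 0.05 in the authors' deposited table. The median log2 ratio of the members was -1.50 with the median ratio of tested genes set to 1, against -1.55 as deposited. Under these 3 scalings the log2 ratios of the 10 most abundant members lay between -2.15 and -1.09. Setting the median ratio to 1 or adding a pseudocount of 1 could not change a sign at these levels and ratios. The rule had also chosen these members by their ratio, so nothing is read from the kept sign. Under quantile normalization, however, 5 of the 10 moved by more than 0.2 on the log2 scale and 5 fell below the 2.5-fold limit, and with the median ratio set to 1, 1 did. No paired analysis was possible because the table holds no per-sample values, and no replicate could be left out for the same reason. Unknown depth limits every statement on error.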
